A study of Homo sapiens with 74 samples.

Results

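The clustered protocadherin locus is the stretch of human chromosome 5 that carries the PCDHA, PCDHB and PCDHG gene arrays. Its regions were taken from the deposited knockout table by position alone, as all regions on chromosome 5 between 140150000 and 140950000 in the hg19 build. That rule found 49 regions of 145536, and all 49 also stand in the knockdown table of 145730 regions. No region crossed an edge of the window. The cells were HAP1, a leukaemia-derived human line with a mostly single set of chromosomes, and open chromatin had been read out by ATAC-seq, where a transposase inserts adapters into accessible DNA. BAF (SWI/SNF) complexes use ATP to slide or evict nucleosomes, and the study removed their subunits singly to ask which open regions depend on which subunit.

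Clustered protocadherins are cell-surface adhesion proteins best known from neurons, where each cell uses a few of the many alternative first exons and so gains a surface identity. In the PCDHA and PCDHG arrays the variable first exons are spliced to shared constant exons, while PCDHB genes are single-exon genes. Promoter choice is known to involve DNA methylation, the architectural protein CTCF, which binds at a conserved element in most of these promoters, and distant enhancers. The gene annotation at hand covers a later genome build than hg19, so regions were not assigned to genes, exons, promoters or enhancers, and whether any region lies on a known enhancer was not assessed.

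Knockouts covered 22 genes in 26 clones, each with 2 libraries, beside untreated wild-type cells. ARID1A (clones 3 and 10), ARID1B (clones 5 and 7), BCL7B (clones 8 and 10) and SMARCA4 (clones 4 and 6) had 2 clones. The other 18 genes (ACTB, ARID2, BCL11A, BCL11B, BCL7A, BRD7, BRD9, DPF1, DPF2, DPF3, PBRM1, PHF10, SMARCA2, SMARCC1, SMARCC2, SMARCD1, SMARCD2 and SMARCD3) had 1 clone each, so for them a knockout and its clone cannot be told apart. The form of the titles splits the libraries into 2 sets. Wild-type replicates 5 and 6 form set 2 with ARID1B clone 5, BCL7B clone 10 and SMARCC2 clone 10. The other 23 clones form set 1 with wild-type replicates 1 and 2. Every clone had the wild type from its set as reference, and the effect of a gene with 2 clones is their mean. The knockdown table held 8 groups of 2 libraries: wild-type cells with a control, SMARCA4, ARID2 or double (SMARCA4 and ARID2) knockdown, ARID2 knockout cells with a control or SMARCA4 knockdown, and SMARCA4 knockout cells with a control or ARID2 knockdown. The labels do not give the clones of the knockout cells in that table. Nothing in the labels says that the replicates were separate cultures, and p-values then reflect no more than the spread among these libraries, which may be technical. Counts over regions cannot show whether a targeted gene was lost, and the identity of the cells was not checked against marker genes.

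Accessibility is given in CPM (counts per 1000000 counts) on library sizes normalised by the trimmed mean of M-values (TMM). A library of set 1 held between 7855389 and 12422345 counts, one of set 2 between 5085811 and 7331537, and one of the knockdown table between 5355899 and 12432292. The locus took 2403 to 4241, 1573 to 2724 and 1702 to 4172 of them. Across the 49 regions, which are not independent replicates, log2 CPM of paired replicate libraries had r = 0.847 to 0.957. A single count of 0 occurred among all regions and libraries of the locus, and no group was without reads in any region. "Called" means an adjusted p under 0.05 in edgeR's quasi-likelihood test, with Benjamini-Hochberg adjustment over all regions of the table (145532 tested in the knockout table and 145617 in the knockdown table).

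Promoter sequences of the 3 arrays are given as a description. Neither the likeness of whole genes nor the placing of short reads was measured. RefSeq (GRCh38.p14) lists 53 protein-coding genes in the arrays, of which 47 matched a promoter sequence, giving 52 promoters of 300 bases. For each array, the run of 10 letters found in the most genes on either strand was taken. Ties went to the run held by the fewest of all promoters. High shares within an array and low shares over all promoters thus follow in part from the choice. From each array 3 examples are printed with its run in capitals. The windows stand on the plus strand, and since their build is not that of the files, no region was placed on them. In the PCDHA array, ATGATGTCGC (reverse complement GCGACATCAT) was held by 8 of 13 promoters, against 0.0313% of all 35116 promoters. The examples lie at chr5:140786070-140786129, chr5:140806963-140807022 and chr5:140841114-140841173.
PCDHA1: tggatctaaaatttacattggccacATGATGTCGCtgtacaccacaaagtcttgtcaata
PCDHA4: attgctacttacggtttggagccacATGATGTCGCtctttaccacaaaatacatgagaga
PCDHA8: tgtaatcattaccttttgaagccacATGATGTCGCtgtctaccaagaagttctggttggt
In the PCDHB array, GGTGGCGCTG (reverse complement CAGCGCCACC) was held by 12 of 14 promoters, against 0.276% of all. The examples lie at chr5:141094530-141094589, chr5:141121709-141121768 and chr5:141245300-141245359.
PCDHB2: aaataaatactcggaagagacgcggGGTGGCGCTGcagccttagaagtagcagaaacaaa
PCDHB4: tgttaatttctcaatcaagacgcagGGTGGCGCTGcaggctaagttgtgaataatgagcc
PCDHB15: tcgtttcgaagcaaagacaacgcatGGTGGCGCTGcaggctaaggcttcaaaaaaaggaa
In the PCDHG array, GCGCCGCTGT (reverse complement ACAGCGGCGC) was held by 10 of 25 promoters, which belong to 9 genes, against 0.131% of all. The examples lie at chr5:141330390-141330449, chr5:141387604-141387663 and chr5:141402701-141402760.
PCDHGA1: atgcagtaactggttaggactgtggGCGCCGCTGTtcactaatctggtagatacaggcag
PCDHGB4: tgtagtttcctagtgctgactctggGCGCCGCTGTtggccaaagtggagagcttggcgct
PCDHGA9: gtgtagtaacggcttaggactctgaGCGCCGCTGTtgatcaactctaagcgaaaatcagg
None of the 3 runs occurred in a promoter of the other arrays. The 4 letters CGCT, which overlap each of these runs and form the core of the known conserved element, stood on either strand in 51 of the 52 promoters, against 70.0% of all promoters. A match of letters is a description and not a measured binding site.

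In wild-type HAP1 the locus was of ordinary accessibility, with the most open regions at its far end. Along the chromosome the window takes the arrays in the order PCDHA, PCDHB and PCDHG. For description it was cut at 140400000, 140650000 and 140900000 into intervals named for that order, which are not annotated array borders, and a short last interval. They held 18, 14, 12 and 5 regions. The regions were 501 to 1405 bases wide with a median of 619, against 622 over the whole table, and their density was 61.25 per Mb against 47.6 on chromosome 5 and 74 in the flanks of 1000000 bases on each side. The mean wild-type level of set 1 ran from 1.04 to 23.1 CPM with a median of 4.42 CPM, against 3.44 CPM over all regions. Ranked by CPM per kilobase, the median region of the locus stood at the 48.9th percentile of the table, and 5 regions stood above the 90th.

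The 3 regions with the highest CPM per kilobase in wild-type cells all lay in the last interval. They ran from 140904095 to 140904780 with 30.2 CPM per kb, from 140939712 to 140940787 with 21.5, and from 140900690 to 140901428 with 21.3. The lowest, from 140202848 to 140203349 in the first interval, had 2.07 CPM per kb. The region at 140904095, called in no knockout, also varied least over the 22 knockouts, with log2 fold changes from -0.29 (BCL7B) to 0.20 (ACTB). Its 2 set 1 wild-type libraries stood at 20.9 and 20.6 CPM, and the 46 set 1 knockout libraries ran from 14.6 to 25.9 CPM with a median of 19.9. Next was the region from 140699603 to 140701008 in the third interval, with log2 fold changes from -0.20 (PBRM1) to 0.34 (SMARCA4).

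**Figure D1:**
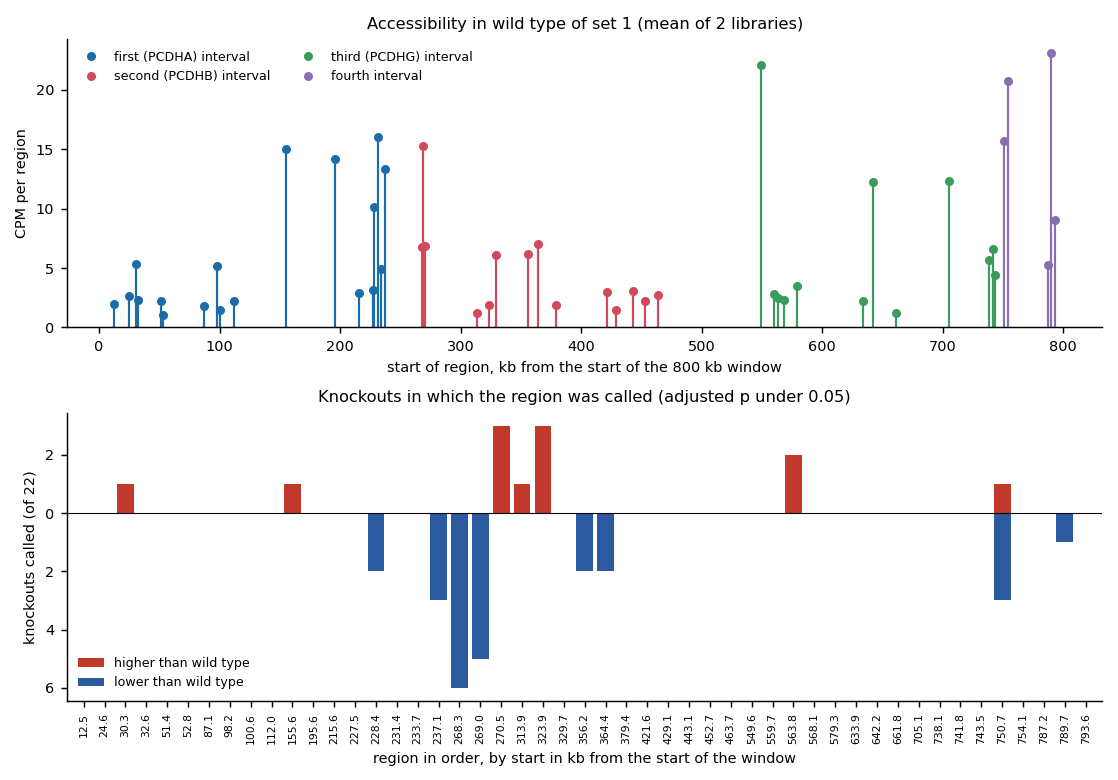
Upper panel: mean accessibility of each of the 49 regions in the 2 wild-type libraries of set 1 (y axis, CPM) against its start in kb after the start of the window (x axis), coloured by interval. Lower panel: for the same regions in order, the number of the 22 knockouts in which the region was called higher (red, upward) or lower (blue, downward); the calls gather in 14 regions, most often at 268.3 kb and 269.0 kb.

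Across the 22 knockouts, 36 of 1078 pairs of region and knockout in the locus were called, 24 lower and 12 higher, which is 3.34% against a background of 2.57% over all regions (1.64% lower and 0.926% higher). The calls fell on 14 regions, and 35 regions were called in no knockout. By interval there were 7 called pairs in the first (18 regions), 22 in the second (14 regions), 2 in the third (12 regions) and 5 in the fourth (5 regions). The intervals differ in size, so these counts are not shares. The third interval moved least: its 2 calls were both gains at the region from 140713772 to 140714391, in the knockouts of BCL7B (log2 fold change 1.18, SE 0.30, adjusted p = 0.0177) and ARID1B (1.09, SE 0.31, adjusted p = 0.0237). That of ARID1B was lost without replicate 1 of clone 5 (adjusted p = 0.231), replicate 2 of clone 7 (0.0804), wild-type replicate 5 of set 2 (0.152), or wild-type replicate 1 (0.0785) or 2 (0.0674) of set 1.

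**Figure D2:**
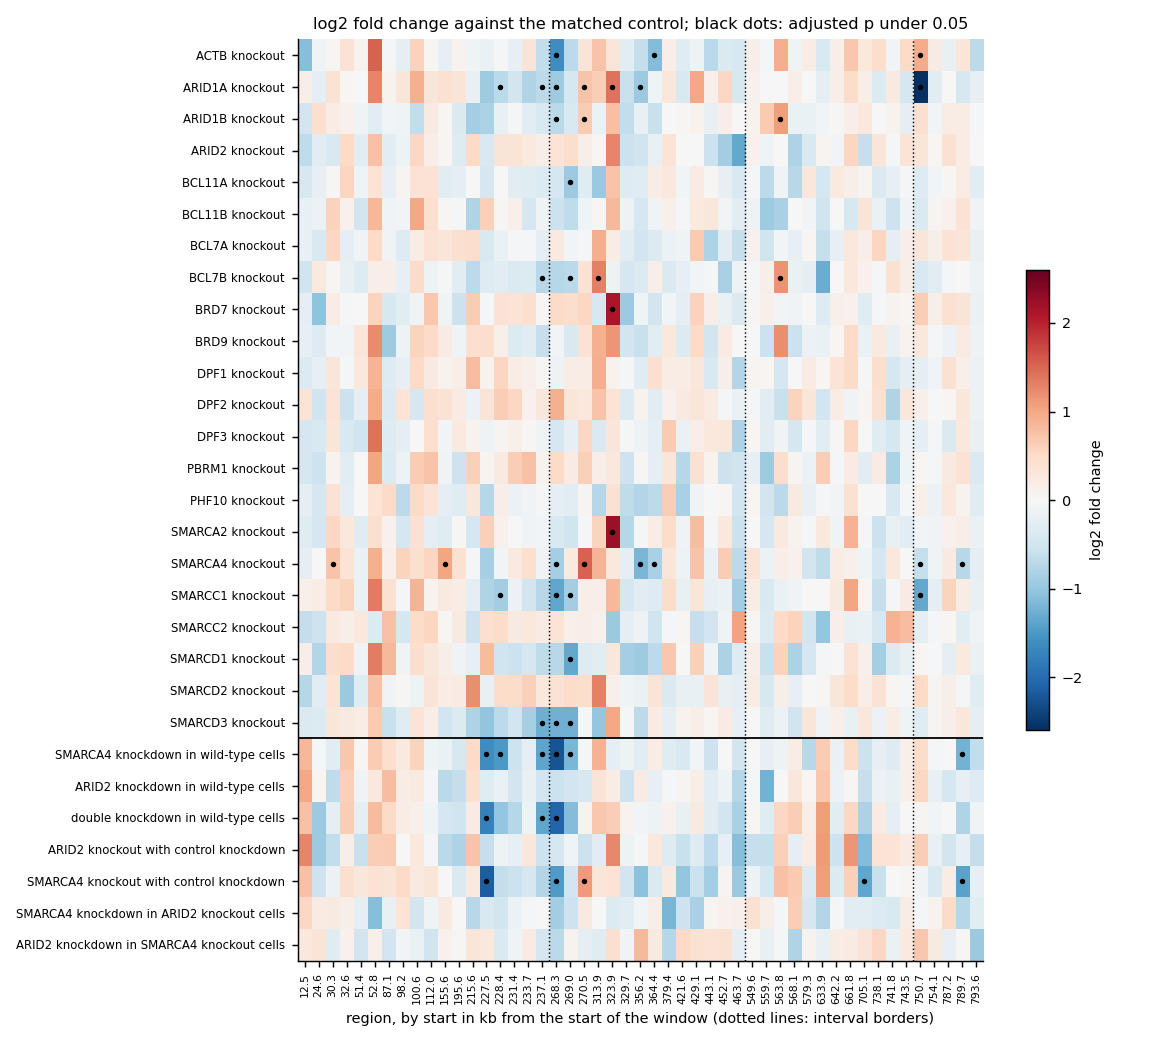
Log2 fold change (colour, blue lower and red higher) of the 49 regions (columns, in order along the chromosome, labelled by start in kb after the start of the window) in the 22 knockouts and 7 comparisons of the knockdown table (rows). Black dots mark adjusted p under 0.05, and most of them lie between 227.5 and 364.4 kb or at 750.7 kb.

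SMARCA4 encodes the main ATPase of the BAF complexes. Its knockout had 8 of 49 regions called, 5 lower and 3 higher, which is 16.3% against 21.9% of all regions (13.9% lower and 8.0% higher). The clearest gain was at the region from 140420520 to 140421179, where the 4 libraries stood at 18.5 and 21.0 CPM (clone 4) and 16.8 and 23.4 CPM (clone 6), against 7.08 and 6.57 CPM in wild type. All 4 libraries lay above both wild-type libraries, a log2 rise of 1.54 (SE 0.22, adjusted p = 7.32e-09). The region from 140305576 to 140306522 in the first interval rose from 15.1 and 14.8 CPM to 26.9 to 37.3 CPM (log2 fold change 1.03, SE 0.18, adjusted p = 1.79e-06). At both regions the call held under all 14 alternative settings that were tried. The third gain, from 140180347 to 140181423 (0.75, SE 0.26, adjusted p = 0.0244), was lost when the locus was scaled to its flanks (adjusted p = 0.129). With the wild type of both sets pooled it was also lost (0.33, adjusted p = 0.236). The call ended too without wild-type replicate 1 (log2 fold change 0.60) or 2 (0.90), or without replicate 2 of clone 4 (0.68) or clone 6 (0.53).

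The losses in the SMARCA4 knockout were led by the region from 140506234 to 140507629 (log2 fold change -1.18, SE 0.29, adjusted p = 0.000744), followed by 140418293 to 140418933 (-0.88), 140514440 to 140515435 (-0.84), 140939712 to 140940787 (-0.72) and 140900690 to 140901428 (-0.60). They rest more on single wild-type libraries. At 140939712 the wild-type libraries stood at 31.0 and 15.2 CPM and the knockout libraries at 11.9 to 15.4 CPM, so the groups overlapped, and without wild-type replicate 1 the adjusted p was 0.84. Without wild-type replicate 1 only 4 regions were called in this knockout, 1 of them lower. The region at 140506234 lost its call without wild-type replicate 2 (adjusted p = 0.155), and that at 140514440 without wild-type replicate 1 (0.674) or replicate 1 of clone 4 (0.0509). Both also ended on the authors' normalized values by limma, at -0.05 (adjusted p = 0.907) and -0.08 (0.842), and relative to the median of those values, at -0.39 (0.317) and -0.42 (0.28). On the authors' own normalized values, whose median over all regions lay 0.338 above wild type in this knockout, 15 regions were called, 4 lower and 11 higher, beside 33654 of all regions. Relative to that median there were 13, 6 lower and 7 higher, beside 25572 of all. Scaled to the flanks, which lowers every region by 0.204, there were 8, 6 lower and 2 higher, beside 32630 of all.

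ARID1A, a defining subunit of canonical BAF, had 7 of 49 regions called in its knockout, 5 lower and 2 higher, which is 14.3% against 12.6% of all regions (10.3% lower and 2.27% higher). The region from 140900690 to 140901428 in the last interval showed the largest loss of any knockout in the locus. Its libraries stood at 3.35 and 2.72 CPM in clone 10 and 2.81 and 1.66 CPM in clone 3, against 17.7 and 13.7 CPM in wild type. The groups were far apart, with a log2 change of -2.60 (SE 0.22, adjusted p = 6.3e-20), or 6.06-fold lower, and the call held in both clones and under all 14 alternative settings. The other losses were from 140506234 (-0.94, SE 0.28), 140418293 (-0.93, SE 0.26), 140378427 to 140379248 (-0.69, SE 0.22) and 140387147 to 140388203 (-0.69, SE 0.21). Each of these was called in 1 clone only. That at 140506234 was called in clone 3 and not clone 10 (adjusted p = 0.237). Those at 140418293, 140378427 and 140387147 were called in clone 10 and not clone 3 (0.114, 0.372 and 0.502). Direct differences between the clones at these regions were not called (adjusted p from 0.504 to 0.934). The loss at 140506234 ended without wild-type replicate 2 (adjusted p = 0.444), and on the authors' normalized values by limma, at -0.18 (0.674) and relative to their median -0.40 (0.332). The loss at 140378427 ended without wild-type replicate 1 (0.0598) or 2 (0.248), replicate 1 of clone 10 (0.11) or replicate 2 of clone 3 (0.104).

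The gains in the ARID1A knockout were from 140473852 to 140474581 (1.42, SE 0.36, adjusted p = 0.00246) and at 140420520 (0.73, SE 0.23, adjusted p = 0.0171). By clone, the gain at 140473852 was called in clone 10 (adjusted p = 0.00132) but not in clone 3 (0.0562). At 140420520 the clones parted: clone 3 stood at 15.6 and 17.8 CPM and clone 10 at 6.14 and 9.31 CPM, so that only clone 3 lay clear of wild type. The call for the mean of both clones was lost without either wild-type replicate (adjusted p = 0.109 and 0.152), replicate 2 of clone 10 (0.144) or replicate 2 of clone 3 (0.0605). The count fell to 4 without replicate 1 of clone 10 or without wild-type replicate 1. It rose to 12 (10 lower) scaled to the flanks, beside 19143 of all regions. On the authors' normalized values 9 were called, 2 lower and 7 higher, beside 20997 of all, where the median over all regions lay 0.224 above wild type; relative to it there were 10, 7 lower and 3 higher, beside 17592 of all. Set directly against each other, the SMARCA4 and ARID1A knockouts differed at 10 regions, 8 of them higher in the SMARCA4 knockout, which is 20.4% against 9.95% of all regions (5.35% higher and 4.6% lower). The largest difference was at 140900690 (2.00, SE 0.20, adjusted p = 1.21e-15), where the 4 SMARCA4 knockout libraries stood at 9.67 to 12.1 CPM, all above the 1.66 to 3.35 CPM of the ARID1A knockout. On the authors' normalized values 4 regions differed, all higher in the SMARCA4 knockout, beside 8197 of all.

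SMARCC1, a core scaffold subunit, had 4 regions called in its knockout, all lower, which is 8.16% against 5.19% of all regions (4.19% lower). At 140900690 both libraries stood at 6.29 and 6.30 CPM, below the 17.7 and 13.7 CPM of wild type (log2 fold change -1.32, SE 0.24, adjusted p = 1.97e-05). The other 3 were at 140418293 (-1.36, SE 0.32), 140378427 (-0.91, SE 0.26) and 140419016 to 140420204 (-0.90, SE 0.23). Only 1 call was left without SMARCC1 replicate 1, and 2 without wild-type replicate 1. The loss at 140378427 ended without any 1 of the 4 libraries compared (adjusted p from 0.0558 to 0.186), and that at 140419016 without SMARCC1 replicate 1 (0.335) or wild-type replicate 2 (0.131). Its paralog SMARCC2 had none called (background 0.0941%).

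The core subunits of the SMARCD family differed in their counts. The SMARCD3 knockout had 3 regions called, all lower (background 0.842%, of which 0.368% lower), and the SMARCD1 knockout 1, also lower (1.58%, of which 0.814% lower), while the SMARCD2 knockout had none (0.423%). The largest loss in the SMARCD3 knockout was at 140387147, where its libraries stood at 6.68 and 4.39 CPM against 14.6 and 12.1 CPM in wild type (-1.27, SE 0.25, adjusted p = 0.000753). The groups did not overlap, but the call was lost without SMARCD3 replicate 2 (adjusted p = 0.154) or wild-type replicate 1 (0.0727). The SMARCD3 count was 1 without SMARCD3 replicate 2 or either wild-type replicate. Whether the SMARCD knockouts differed from each other was not tested. In the knockout of ACTB, the actin shared by these complexes, 3 regions were called, 2 lower and 1 higher (background 1.35%, with 0.519% lower and 0.833% higher). The gain was at 140900690, where the libraries stood at 31.7 and 29.7 CPM, above both wild-type libraries (0.96, SE 0.21, adjusted p = 0.00253). Without wild-type replicate 2 its adjusted p was 0.185. Only 1 ACTB call was left without ACTB replicate 2.

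Among the other subunits, 5 knockouts had calls. The knockout of BCL7B had 4 regions called, 2 lower and 2 higher (background 1.4%, with 0.783% lower and 0.62% higher). That of ARID1B, the alternative to ARID1A, had 3, 1 lower and 2 higher (3.22%, with 1.46% lower and 1.76% higher). BCL11A had 1 lower (0.675%, with 0.295% lower), BRD7 1 higher (0.695%, with 0.383% higher), and SMARCA2, the alternative ATPase, 1 higher (0.234%, with 0.0742% higher). The ARID1B count fell to 0 without replicate 1 of clone 5, wild-type replicate 1 of set 1 or replicate 5 of set 2, and to 1 without replicate 1 of clone 7 or wild-type replicate 2 of set 1. The BCL7B count fell to 1 without wild-type replicate 2 of set 1, and to 2 without wild-type replicate 1 of set 1, either wild-type replicate of set 2 or replicate 1 of either clone. The BRD7 and SMARCA2 calls ended without wild-type replicate 1. The remaining knockouts had none in the locus by edgeR: ARID2 (background 1.79%), BCL11B (0.893%), BCL7A (0.467%), BRD9 (0.497%), DPF1 (0.0515%), DPF2 (1.79%), DPF3 (0.0667%), PBRM1 (0.423%) and PHF10 (0.391%), beside SMARCC2 and SMARCD2. At an unadjusted p under 0.05 these 11 knockouts had 0 (BCL7A) to 7 (SMARCD2) regions, where 7843 (DPF1) to 18563 (DPF2) of all 145532 regions tested passed, and DESeq2 called 1 region in the DPF2 knockout and none in the other 10. ARID2, PBRM1, BRD7 and PHF10 belong to PBAF, a form of the complex without ARID1A. The count for the ARID2 knockout rose without wild-type replicate 2. It was 2 on the authors' normalized values and 3 with the wild type of both sets pooled, with no counts over all regions given for these.

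The most often called part of the locus was a run of 3 neighbouring regions at the start of the second interval, separated by gaps of 83 and 316 bases. The first, from 140418293 to 140418933, was lower in 6 knockouts. Its 2 set 1 wild-type libraries stood at 7.38 and 6.10 CPM. The libraries stood at 2.92 and 1.53 CPM in the ACTB knockout, 2.36 and 2.91 CPM in SMARCC1, and 2.95 and 2.73 CPM in SMARCD3. All 6 lay below both wild-type libraries, with log2 fold changes of -1.61 (SE 0.33, adjusted p = 0.000877), -1.36 (SE 0.32, adjusted p = 0.00239) and -1.25 (SE 0.32, adjusted p = 0.0228).

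The losses at this region in the ARID1A (-0.93), SMARCA4 (-0.88) and ARID1B (-0.70) knockouts were smaller. On the authors' normalized values by limma, the losses in ARID1A (-0.76, adjusted p = 0.0502) and SMARCA4 (-0.58, adjusted p = 0.107) were not called. Relative to the median of those values both calls held. Those of ACTB, SMARCC1, ARID1A, SMARCA4 and ARID1B were all lost without wild-type replicate 1, at adjusted p of 0.0634, 0.0827, 0.182, 0.166 and 0.185. That of ACTB was lost without its own replicate 2 (0.207), that of SMARCC1 without its replicate 1 (0.0787) and that of ARID1A without replicate 1 of clone 10 (0.0959). That of ARID1B was lost without any 1 of the 8 libraries (adjusted p from 0.0506 to 0.241), in DESeq2 (0.0563) and with the wild type of both sets pooled (0.0548). Its value rests on clone 5, at 3.33 and 5.02 CPM against 13.8 and 11.5 CPM in the wild type of set 2, since clone 7 stood at 6.89 and 8.54 CPM, overlapping its own wild type. The highest mean of any knockout was in SMARCC2 clone 10, at 14.6 and 17.7 CPM, a set 2 clone whose difference from its own wild type was not called (0.35, adjusted p = 0.868). All 6 losses use set 1 wild type as a reference and are not independent. Leave-out values for the SMARCD3 loss at this region are not given. The counts above show that calls of that knockout depended on single libraries.

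The middle region, from 140419016 to 140420204, was lower in 5 knockouts. The libraries of SMARCD1 stood at 6.82 and 5.21 CPM and those of SMARCD3 at 6.29 and 6.54 CPM, against 13.5 and 17.1 CPM in wild type. None overlapped, and the log2 fold changes were -1.34 (SE 0.23, adjusted p = 3.1e-05) and -1.25 (SE 0.23, adjusted p = 0.000207). The SMARCD1 call held under all 12 alternative settings tried. Smaller losses were called for BCL11A (-0.94, adjusted p = 0.0144), SMARCC1 (-0.90, adjusted p = 0.00459) and BCL7B (-0.70, adjusted p = 0.00724). The BCL7B value rests on clone 10 of set 2 (-1.59, adjusted p = 1.46e-05), since clone 8 was not called (adjusted p = 0.751). Its 2 clones differed here by 1.76 (adjusted p = 0.000146). That of BCL11A ended without either of its own replicates (adjusted p = 0.142 and 0.25) or wild-type replicate 2 (0.382). The SMARCA4 knockout libraries, at 12.6 to 21.9 CPM, were not lower here (0.24, SE 0.19, adjusted p = 0.389). That knockout had a called loss at the region 83 bases before and a called gain at the region 316 bases after. Set directly against the ARID1A knockout, it was higher at this middle region too (0.70, SE 0.16, adjusted p = 0.000357), though the libraries overlapped.

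The last of the 3 regions, at 140420520, rose and never fell among the called knockouts: in SMARCA4 (1.54), ARID1A (0.73) and ARID1B (0.66, SE 0.19, adjusted p = 0.0274). Within the ARID1B pair the gain stood in clone 7, at 18.9 and 12.8 CPM against 7.08 and 6.57 CPM in wild type. Clone 5 stood at 8.42 and 8.20 CPM beside 6.74 and 8.65 CPM in the wild type of set 2, which overlapped it. Clone 8 of BCL7B was also higher, at 16.8 and 10.8 CPM (1.01, SE 0.25, adjusted p = 0.00521), while clone 10 stood at 5.92 and 7.07 CPM. The clone 8 call was lost without its replicate 1 (0.66, adjusted p = 0.38) and without wild-type replicate 1 (0.0505) or 2 (0.0987). The knockout libraries above 10 CPM here came from SMARCA4, ARID1A clone 3, ARID1B clone 7, BCL7B clone 8 and single libraries of BRD7, DPF3 and PBRM1.

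**Figure D3:**
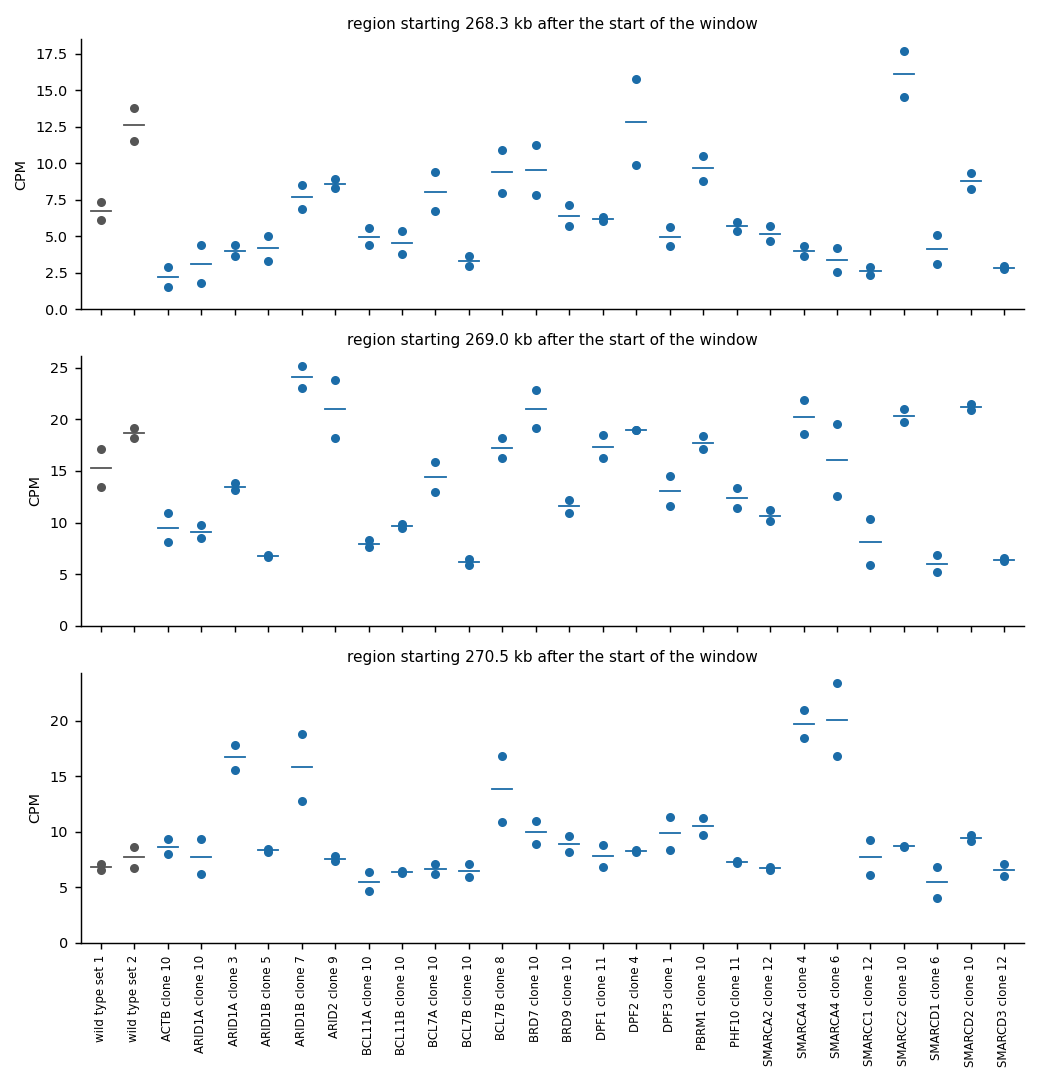
Accessibility (CPM, y axis) of the 3 neighbouring regions, starting 268.3, 269.0 and 270.5 kb after the start of the window, in every library of the knockout table (points; bars are means of 2 libraries; grey, wild type). The libraries of ACTB, SMARCC1 and SMARCD3 are low in the upper panel, those of SMARCD1 and SMARCD3 in the middle panel, and those of SMARCA4 are high at 16.8 to 23.4 CPM in the lower panel.

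The region from 140900690 to 140901428 had the widest spread over the knockouts, with log2 fold changes from -2.60 (ARID1A) to 0.96 (ACTB), and it also separated the 2 sets. Its wild-type libraries stood at 17.7 and 13.7 CPM in set 1 but at 5.88 and 3.46 CPM in set 2 (log2 difference 1.75, SE 0.26, adjusted p = 4.9e-07). The 6 knockout libraries of set 2 ran from 3.31 to 7.19 CPM, and the 16 libraries of the knockdown table from 3.34 to 7.81 CPM with a median of 4.99 CPM. The 46 knockout libraries of set 1 ran from 1.66 to 31.7 CPM with a median of 14.8 CPM. The losses in ARID1A, SMARCC1 and SMARCA4 were therefore measured in the set in which wild type was high. The ARID1A libraries, at 1.66 to 3.35 CPM, lay below every wild-type library of both sets, whereas those of SMARCC1 (6.29 and 6.30 CPM) and SMARCA4 (9.67 to 12.1 CPM) lay above both wild-type libraries of set 2. In the knockdown table, where the wild-type control stood at 3.90 and 4.12 CPM, the SMARCA4 knockout with control knockdown stood at 3.37 and 4.18 CPM (-0.09, adjusted p = 0.945).

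Between the sets, wild type differed at 4 regions of the locus, which is 8.16% against 5.83% of all regions (4.29% lower and 1.54% higher in set 1). Beside 140900690, those of set 1 were lower from 140377470 to 140377992 (3.40 and 2.99 CPM against 7.45 and 9.08 CPM; -1.36, SE 0.35, adjusted p = 0.006), at 140387147 (-1.01) and at 140418293 (-0.90). Only 140900690 was left without wild-type replicate 6 of set 2 or replicate 2 of set 1. A set may differ in culture, time or preparation, which the labels do not give, and the cause was not tested.

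The region from 140473852 to 140474581 was the other one that ranged widely. It was low in wild type, at 0.874 and 2.99 CPM in set 1 and 4.44 and 2.45 CPM in set 2. In the knockout of SMARCA2 it stood at 8.65 and 9.14 CPM (2.25, SE 0.38, adjusted p = 5.63e-05), and in that of BRD7 at 8.99 and 7.31 CPM (2.12, SE 0.39, adjusted p = 0.000185). These libraries and those of ARID1B clone 7, at 9.12 and 8.07 CPM, lay above every other library of the table. ARID1A followed at 3.78 to 6.03 CPM. The calls for SMARCA2, BRD7 and ARID1A were all lost without wild-type replicate 1, at adjusted p of 0.239, 0.215 and 0.368, with log2 fold changes of 1.57, 1.44 and 0.74.

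**Figure D4:**
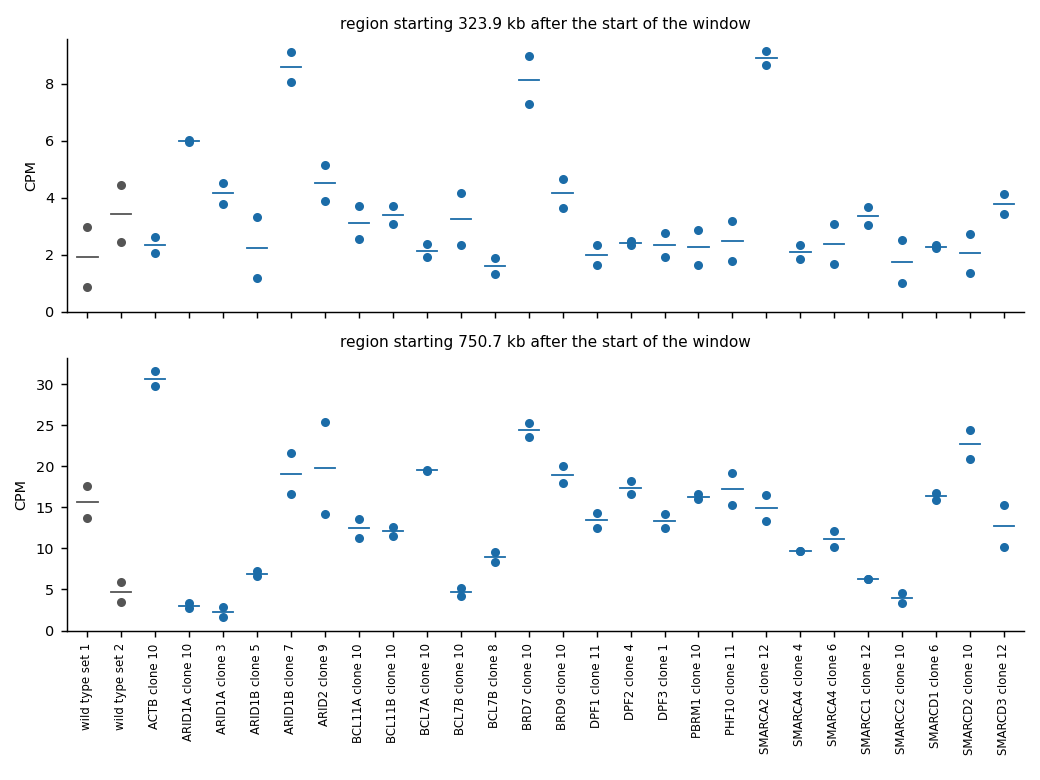
Accessibility (CPM, y axis) of the regions starting 323.9 and 750.7 kb after the start of the window in every library of the knockout table (points; bars are means of 2 libraries; grey, wild type). In the upper panel the libraries of SMARCA2, BRD7 and ARID1B clone 7 stand highest; in the lower panel those of ARID1A are lowest and those of ACTB highest, and wild type of set 2 lies below wild type of set 1.

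The clones of a gene did not always move alike. The SMARCA4 clones, both of set 1, had 7 regions called each against wild type (4 lower and 3 higher in each). The background was 17.5% for clone 4 (11.2% lower and 6.3% higher) and 15.8% for clone 6 (10.3% lower and 5.48% higher). No region of the locus differed between them by edgeR (background 0.224%), 2 did at an unadjusted p under 0.05 (9406 of all 145532 regions), and DESeq2 called none. Leaving out 1 library left 3 to 5 calls in each SMARCA4 clone, with 3 in clone 4 without either of its replicates and 3 in clone 6 without wild-type replicate 1. ARID1A clone 10 had 8 regions called, 7 lower (background 8.26%, with 7.02% lower and 1.24% higher), and clone 3 had 4, 2 lower (9.68%, with 7.72% lower and 1.95% higher). Clone 10 kept 4 calls without its replicate 1 and 3 without wild-type replicate 1. The clones differed at 1 region (0.0598%, with 0.0261% higher in clone 3), 140420520, where clone 3 was higher by 1.11 (SE 0.25, adjusted p = 0.0272), and without replicate 1 of clone 10, without either replicate of clone 3 and under 4 other settings that call was lost.

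The clones of ARID1B and BCL7B come from different sets, so clone and set cannot be told apart in their differences. ARID1B clone 5 had 4 regions called, all lower (background 0.275%, with 0.205% lower), and clone 7 had 6, all higher (9.22%, with 6.03% higher). Clone 5 kept 1 call without its replicate 1 and 2 without wild-type replicate 5, and clone 7 kept 2 without its replicate 1. The changes of the 2 clones, each from its own wild type, differed at 8 regions, all lower in clone 5 (4.97%, with 3.7% lower), most at 140473852 (-2.82, SE 0.59, adjusted p = 0.000592). BCL7B clone 10 had 6 regions called, all lower (0.743%, with 0.55% lower), and clone 8 had 2, 1 lower and 1 higher (4.83%, with 1.33% lower and 3.5% higher). Clone 10 kept 3 without either of its replicates or wild-type replicate 5, and clone 8 none without its replicate 1 and 1 without its replicate 2 or wild-type replicate 2. Their changes differed at 9 regions, all higher in clone 8 (4.31%, with 3.41% higher), most at 140418293 (2.41, SE 0.44, adjusted p = 6.75e-05). Leaving out 1 library gave 5 to 9 differing regions for ARID1B, the fewest without replicate 1 of clone 5, and 3 to 9 for BCL7B, the fewest without replicate 1 of clone 8. There clone 10 stood at 2.96 and 3.62 CPM against 13.8 and 11.5 CPM in its wild type, and clone 8 at 10.9 and 7.95 CPM against 7.38 and 6.10 CPM. The means over clones given above therefore average opposite values at several regions of these 2 genes.

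In the knockdown table the called changes in the locus were almost all losses, as were most calls over all regions. Over the 7 comparisons, 14 of 343 pairs of region and comparison were called, 13 lower and 1 higher, which is 4.08% against 2.96% of all regions (2.53% lower and 0.426% higher). They fell on 8 regions, 6 of which were also called in a knockout, and no share over all regions is given for that overlap. SMARCA4 knockdown in wild-type cells gave 6 called regions, all lower, which is 12.2% against 5.73% of all regions (4.96% lower), and DESeq2 called 4. At 140418293 its libraries stood at 2.73 and 2.81 CPM against 13.85 and 12.6 CPM with the control knockdown. The values were far apart, with a log2 change of -2.25 (SE 0.38, adjusted p = 4.29e-05), or 4.76-fold lower, and the call held under all 8 alternative settings. The other 5 were at 140377470 (-1.62, SE 0.42), 140378427 (-1.50, SE 0.36), 140387147 (-1.37, SE 0.37), 140939712 (-1.22, SE 0.37) and 140419016 (-1.18, SE 0.38). Those at 140377470, 140378427 and 140387147 lost the call without control replicate 2 (log2 fold changes -1.36, -1.43 and -1.38) and under at least 1 other leave-out.

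The double knockdown gave 3 called regions, all lower (6.12% against 4.62%, with 4.0% lower), at 140418293 (3.00 and 3.30 CPM, log2 change -2.07, SE 0.38, adjusted p = 0.000171), 140377470 (-1.75, SE 0.43) and 140387147 (-1.35, SE 0.37). The call at 140387147 ended without any single library of either group (log2 fold change from -1.63 to -1.13). That at 140377470 ended without replicate 1 of the double knockdown (-1.22) or control replicate 2 (-1.49). More regions were called when same-numbered libraries were fitted as a replicate block, as given in the closing section. ARID2 knockdown in wild-type cells (background 0.0%) and the ARID2 knockout with control knockdown (0.418%) gave none by edgeR or DESeq2, with 1 and 5 regions at an unadjusted p under 0.05 (6167 and 15390 of all 145617 regions). At 140418293 the ARID2 knockdown stood at 10.5 and 7.33 CPM, below the control but not called (-0.56, adjusted p = 0.988).

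The SMARCA4 knockout with control knockdown gave 5 called regions, 4 lower and 1 higher, and 2 without either of its replicates or 3 without control replicate 1 (10.2% against 9.75%, with 8.26% lower and 1.49% higher). Of these, 3 were called in the same direction in the SMARCA4 knockout of the other table, which is 3 of the 5 and 3 of the 8 there. No share over all regions is given for that overlap. The 3 shared calls were the losses at 140418293 (5.99 and 3.50 CPM, log2 change -1.47, SE 0.36, adjusted p = 0.0023) and 140939712 (-1.38, SE 0.38, adjusted p = 0.00753), and the gain at 140420520. At 140420520 the libraries stood at 21.0 and 13.5 CPM against 7.80 and 8.23 CPM with the wild-type control (1.10, SE 0.34, adjusted p = 0.0243). The SMARCA4 knockdown in wild-type cells stood at 8.95 and 6.29 CPM there, overlapping the control (-0.06, adjusted p = 0.957); the knockout and the knockdown were not tested against each other. The gain was lost in DESeq2 (adjusted p = 0.0626), without replicate 1 of the SMARCA4 knockout (0.397) and without either control replicate (0.187 and 0.126). The other 2 losses were at 140377470 (1.37 and 2.43 CPM against 7.02 and 9.90 CPM, log2 change -2.15, SE 0.44, adjusted p = 0.000247) and from 140855149 to 140855781 (7.11 and 7.28 CPM against 18.2 and 18.5 CPM, log2 change -1.35, SE 0.36, adjusted p = 0.00727). At 140855149 every other comparison with this control was also negative, though not called: ARID2 knockout (-1.12), double knockdown (-0.82), ARID2 knockdown (-0.60) and SMARCA4 knockdown (-0.55). In the knockout table the SMARCA4 knockout was not called there (-0.11, adjusted p = 0.756).

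Adding a second perturbation to a knockout gave no call in the locus. For SMARCA4 knockdown in ARID2 knockout cells (background 0.195%) and ARID2 knockdown in SMARCA4 knockout cells (0.0%), edgeR and DESeq2 called none, with 1 and 2 regions at an unadjusted p under 0.05 (13846 and 6524 of all 145617 regions). The change at 140418293 by SMARCA4 knockdown was -0.90 in ARID2 knockout cells and -2.25 in wild-type cells. The interaction of 1.35 was not called (adjusted p = 0.952). Neither interaction gave a call in edgeR or DESeq2 (background 0.0% for both), with 5 and 0 regions at an unadjusted p under 0.05 (7564 and 4040 of all 145617 regions).

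**Figure D5:**
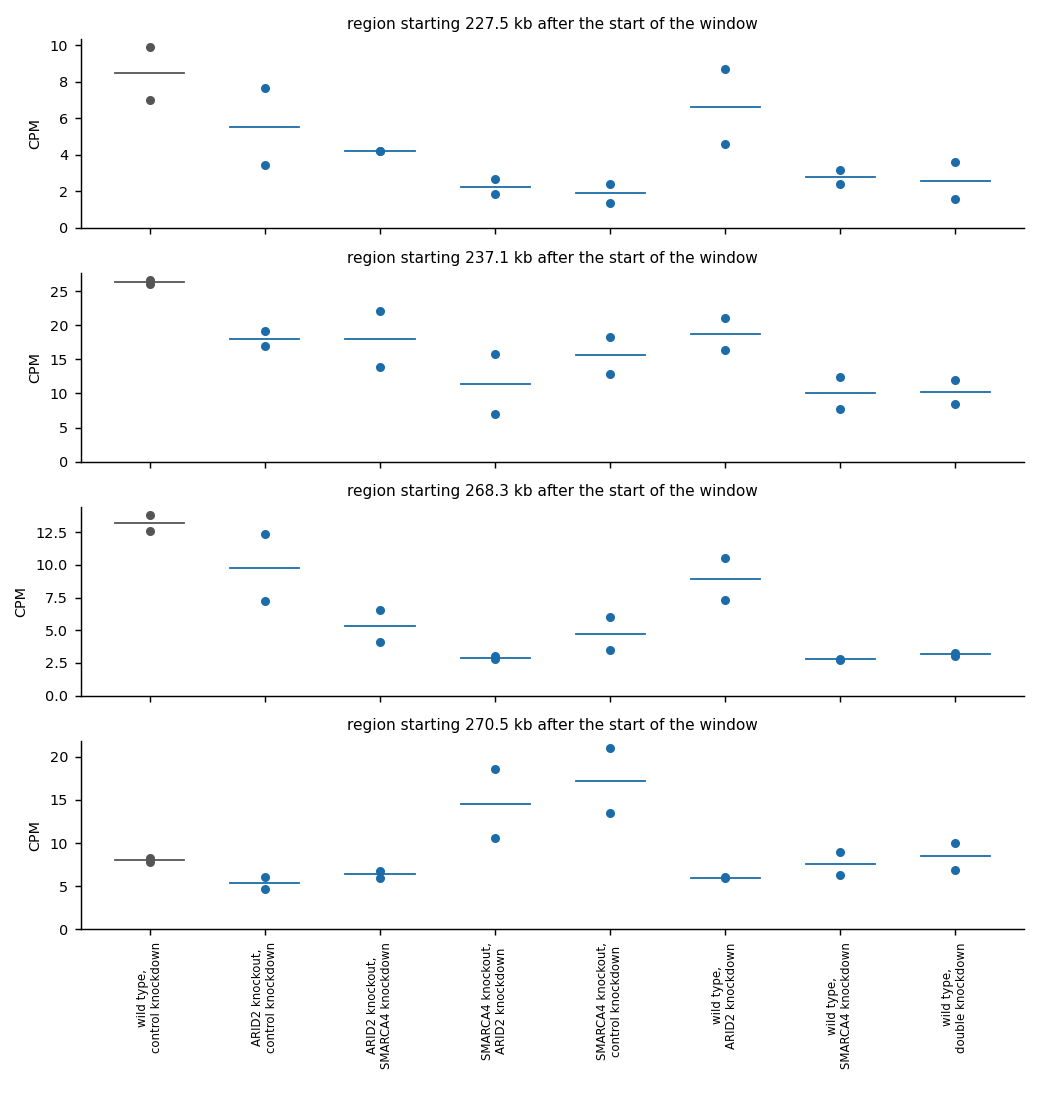
Accessibility (CPM, y axis) in the 8 groups of the knockdown table (points, 2 libraries each; bars are means; grey, wild type with control knockdown) at the regions starting 227.5, 237.1, 268.3 and 270.5 kb after the start of the window. At 268.3 kb the SMARCA4 and double knockdowns stand at 2.73 to 3.30 CPM, below the control; at 270.5 kb the SMARCA4 knockout groups stand highest, at 10.6 to 21.0 CPM.

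All comparisons with wild-type cells in the knockdown table share 1 control group, and that group stood apart in the level summed over the locus. Summed over the 49 regions its libraries had 405 and 407 CPM, and each of the 7 other groups lay wholly below, with a highest value of 370.4 CPM. On plain total counts 6 of the 7 groups lay wholly below it. By interval, the control stood apart in the first and second only. In the third its 86.7 and 95.0 CPM overlapped SMARCA4 knockdown in wild-type cells (89.8 and 71.3 CPM). In the fourth its 69.4 and 53.2 CPM overlapped ARID2 knockdown in wild-type cells (63.7 and 44.7 CPM). The ratio of locus to flanks also overlapped, at 0.247 and 0.293 in the control against 0.251 and 0.256 with that ARID2 knockdown. The summed level was 307.9 ± 37.1 CPM (SD, n = 2) with SMARCA4 knockdown, 313.1 ± 15.1 CPM with double knockdown, and 338.4 ± 45.4 CPM with ARID2 knockdown. In the flanks the same control had 1517 ± 188 CPM (SD, n = 2), within the range of the other groups. The median log2 fold change over the locus was -0.14 with SMARCA4 knockdown, beside 0.06 over all regions and 0.28 in the flanks. The part of this control in the losses was not tested, but leaving out its replicate 1 or 2 left 3 or 1 of the 6 calls for SMARCA4 knockdown, leaving out replicate 1 or 2 of the knockdown left 4 or 2, and the double knockdown kept 1 of 3 without control replicate 2 or its own replicate 1.

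In the knockout table the summed level of the locus was 323.2 ± 15.5 CPM (SD, n = 2) in wild type of set 1 and 386.9 ± 4.92 CPM in set 2. The SMARCA4 knockout had 352.4 ± 25.5 CPM (n = 4), with libraries from 326 to 377 CPM that overlapped the wild-type libraries of 312 and 334 CPM. The ARID1A knockout had 301.4 ± 24.9 CPM (n = 4), from 268 to 323 CPM, and also overlapped. Among single clones, ARID1B clone 7 had 399.9 ± 3.29 CPM (SD, n = 2), above its wild type of set 1. ARID1B clone 5 had 303.4 ± 16.7 CPM and BCL7B clone 10 had 294.7 ± 13.5 CPM (n = 2 each), both below their wild type of set 2. As a description, the median log2 fold change over the 49 regions was 0.11 in the SMARCA4 knockout (0.01 over all regions, 0.13 in the flanks) and -0.004 in that of ARID1A (0.02 and 0.08). Over the 22 knockouts it ran from -0.14 (SMARCD3) to 0.20 (DPF2).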

How the data were processed

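The deposited tables give raw counts per region and library. Tools listed, without roles, in the submitters' processing notes are MACS2 2.1.1.20160309, Picard 1.118 and Bowtie2 2.2.4, with hg19 as build; how regions were merged and reads counted is not given in the sources used here, nor whether starts count from 0 or 1. The authors' deposited normalized table of 48 libraries, on a scale taken as log2, served an alternative test only. Of 74 libraries in the labels, 72 matched a column; wild-type replicates 3 and 4 were not analysed here, and 2 columns outside the labels were not used. The labels conflict on whether knockdowns used short hairpin or small interfering RNA.

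Counts were tested in R 4.3.3 with edgeR 4.0.16 (quasi-likelihood, TMM, filterByExpr, 1 coefficient per clone or group, Benjamini-Hochberg over all regions), with 28 and 8 residual degrees of freedom; all 49 regions passed the filter. Tests are 2-sided. Alternatives were DESeq2 1.42.0, limma 3.58.1 on the authors' values, other scalings, references and filters, and leaving out each library. Fits were also run on simulated counts whose spread followed the dispersion trend alone, with changes planted only in regions above the median level. That run supports no call given here. Leave-out fits kept the dispersion trend of the full fit. Members and lists were chosen with earlier results of these data known. Named were the 3 most and 1 least accessible regions per kb, the 2 least variable, the 5 called in most knockouts, and the called regions with the largest changes (up to 4 per direction in the SMARCA4, ARID1A, SMARCC1 and ARID2 knockouts and the SMARCA4 and double knockdowns, 1 elsewhere). Other values at these regions, and counts by library, were chosen after their values were seen. The labels name no molecular identifiers, so counts need not be independent molecules.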

Additional observations from a re-analysis of the deposited data

Results flagged for a closer look

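Among 72 groups of 4 libraries tested for a library that stands apart, 3 values lay beyond the critical value of Dixon's test; chance flags about 1 in 20 groups. At 140387147 the highest SMARCA4 knockout library stood at 16.7 CPM and the highest BCL7B library at 15.3 CPM. At 140378427 the highest BCL7B library stood at 12.1 CPM. The 4 BCL7B libraries mix 2 clones and 2 sets.

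The other flagged results are tested differences between 2 clones of a gene. Clones 3 and 10 of ARID1A differed at 1 region, 140420520, by 1.108 on the log2 scale. Clones 5 and 7 of ARID1B differed at 8 regions, led by 140473852 with a difference of -2.82. Clones 8 and 10 of BCL7B differed at 9 regions, led by 140418293 with 2.41. For ARID1B and BCL7B the clones also differ in set.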

How the results depend on the processing

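Each of 57 named values was recomputed under its alternatives, 685 values in all: 559 kept direction and call, 125 kept the direction and lost the call, and 1 reversed. The reversal was the ARID1B knockout at 140418293, 0.15 on the authors' normalized values (adjusted p = 0.81, limma), a table that holds clone 7 of that gene only. Counts moved by over 1.5 times as follows. On the authors' normalized values the SMARCA4 knockout had 15 regions called, the ARID2 knockout 2, and SMARCA4 against ARID1A 4. Relative to the median of those values, an alternative chosen after seeing the data, the counts were 13, 2 and 3, and 7 for SMARCC1. With the wild type of both sets pooled, ARID1A had 13, ARID2 3, and the other 18 knockouts 48 called pairs in place of 17. Counts over all regions are not given for these pooled fits, and the wild types of the 2 sets differed at 5.83% of all regions. The pooled counts are therefore no result about the locus alone. Nor are counts over all regions given for ARID2 and SMARCC1 on the authors' normalized values. Scaled to the flanks, ARID1A had 12. On plain total counts the summed level was 379.6 CPM in wild type of set 2 and 383.4 CPM in the wild-type control of the knockdown table. With a replicate block the double knockdown had 8 regions called in place of 3, and no other count moved by over 1.5 times. The count over all regions in that blocked fit is not given, so the 8 is no result about the locus alone. The labels do not say that the numbers pair the libraries: deviations of same-numbered libraries had r from -0.131 to 0.168 within set 1, and from 0.08 to 0.401 among the knockdown libraries, where 26 of 28 pairs exceeded 0.1.

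Leaving out 1 library at a time gave 4 to 8 calls for SMARCA4, 4 to 8 for ARID1A, 1 to 4 for SMARCC1, 0 to 1 for ARID2, 8 to 18 pairs for the other 18 knockouts, 7 to 10 for SMARCA4 against ARID1A, 12 to 19 for the clone differences, 1 to 4 for the wild-type sets, 1 to 4 for SMARCA4 knockdown, 1 to 2 for the double knockdown, 2 to 5 for the other 5 knockdown comparisons and 0 to 0 for the interactions. The other 18 knockouts had 9 and 8 called pairs without wild-type replicate 1 and 2 of set 1. The other 5 knockdown comparisons had 2 without either SMARCA4 knockout replicate and 3 without control replicate 1. With 2 libraries per group, a lone library left in an arm is assumed to vary like the rest.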
